A study of Arabidopsis thaliana with 16 samples.

Results

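The core low-oxygen response genes of Arabidopsis are a list of 45 loci whose transcripts accumulate across plant organs when oxygen runs short. Of the 45, 23 had a probe set that the platform annotation pairs with that gene alone, and 19 of those had log2 values above 4 on at least 2 of the 16 arrays and were tested. The 19 are described here gene by gene in the roots of dark-grown seedlings, among 13805 features tested on the same arrays. The level of 4 was set on the values themselves, so a gene that is low in one group passes only through the groups in which it is high. Of the 19, 14 lay above 4 on all 16 arrays, and AT2G17850, AT3G10040 and AT4G10270 lay above 4 on no ein2 array.

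Expression was measured in 8 groups of 2 Affymetrix arrays, which the series describes as biological replicates. In the auxin experiment, ein2-5 roots (ein2, an ethylene-insensitive mutant) and wild-type Col roots were compared 4 h after a spray with 1 µM indole-3-acetic acid (IAA, the main natural auxin) in 0.01% ethanol, or with 0.01% ethanol alone (mock). In the ethylene experiment, aux1-7 roots (aux1, an auxin-resistant mutant) and Col-0 roots were compared after 4 h in hydrocarbon-free air with 10 ppm ethylene or without it. All seedlings had grown for 3 days in the dark at 22 °C on vertical plates, and roots were cut from the hypocotyls in RNAlater. Each mutant was represented by 1 allele, and the transcripts of EIN2 and AUX1 themselves were not analysed here. The experiments shared no arrays and differed in handling, so levels set across them are descriptions without a test.

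When oxygen falls, plant cells shift from respiration to ethanol fermentation, in which pyruvate decarboxylase and alcohol dehydrogenase regenerate NAD+ for glycolysis. Group VII ethylene response factors switch on the core genes. In normal oxygen these factors are marked for destruction when plant cysteine oxidases oxidise their N-terminal cysteine, which makes the oxidases the oxygen sensors of the pathway. Ethylene, a gas that collects around submerged roots, signals through the membrane protein EIN2 and the transcription factor EIN3, and it is known to prime plants for low oxygen. The trihelix factor HRA1 (AT3G10040) is itself a core gene and restrains the group VII factor RAP2.12. PDC2 (AT5G54960) encodes a pyruvate decarboxylase, and CML38 (AT1G76650) a calmodulin-like calcium sensor. The other tested members are known in the annotation used here by locus code only, and for some a protein family is named below as background.

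Array medians ranged from 5.87 to 6.0 on the log2 scale, and replicate arrays correlated with each other at 0.993 to 0.998. The lower quartile of every array was at or below 2.55, which is used here as the level of probe sets with little or no signal. The root marker EXPA7, a root hair expansin, ranged from 7.43 to 10.21 over the 16 arrays and was the only one of 8 listed root markers with a single-gene probe set. Of 10 green shoot markers only RCA (Rubisco activase) had one: it read 7.82 on Col mock replicate 1 and between 2.60 and 3.87 on the other 15 arrays. The main counts of calls and medians over all tested members that rest on Col mock are also given without that array. Counts on part of the members, calls shared between mock and IAA, the order of the groups and most correlations are not. In whole roots, fewer cells of a type and less RNA per cell cannot be told apart.

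**Figure D1:**
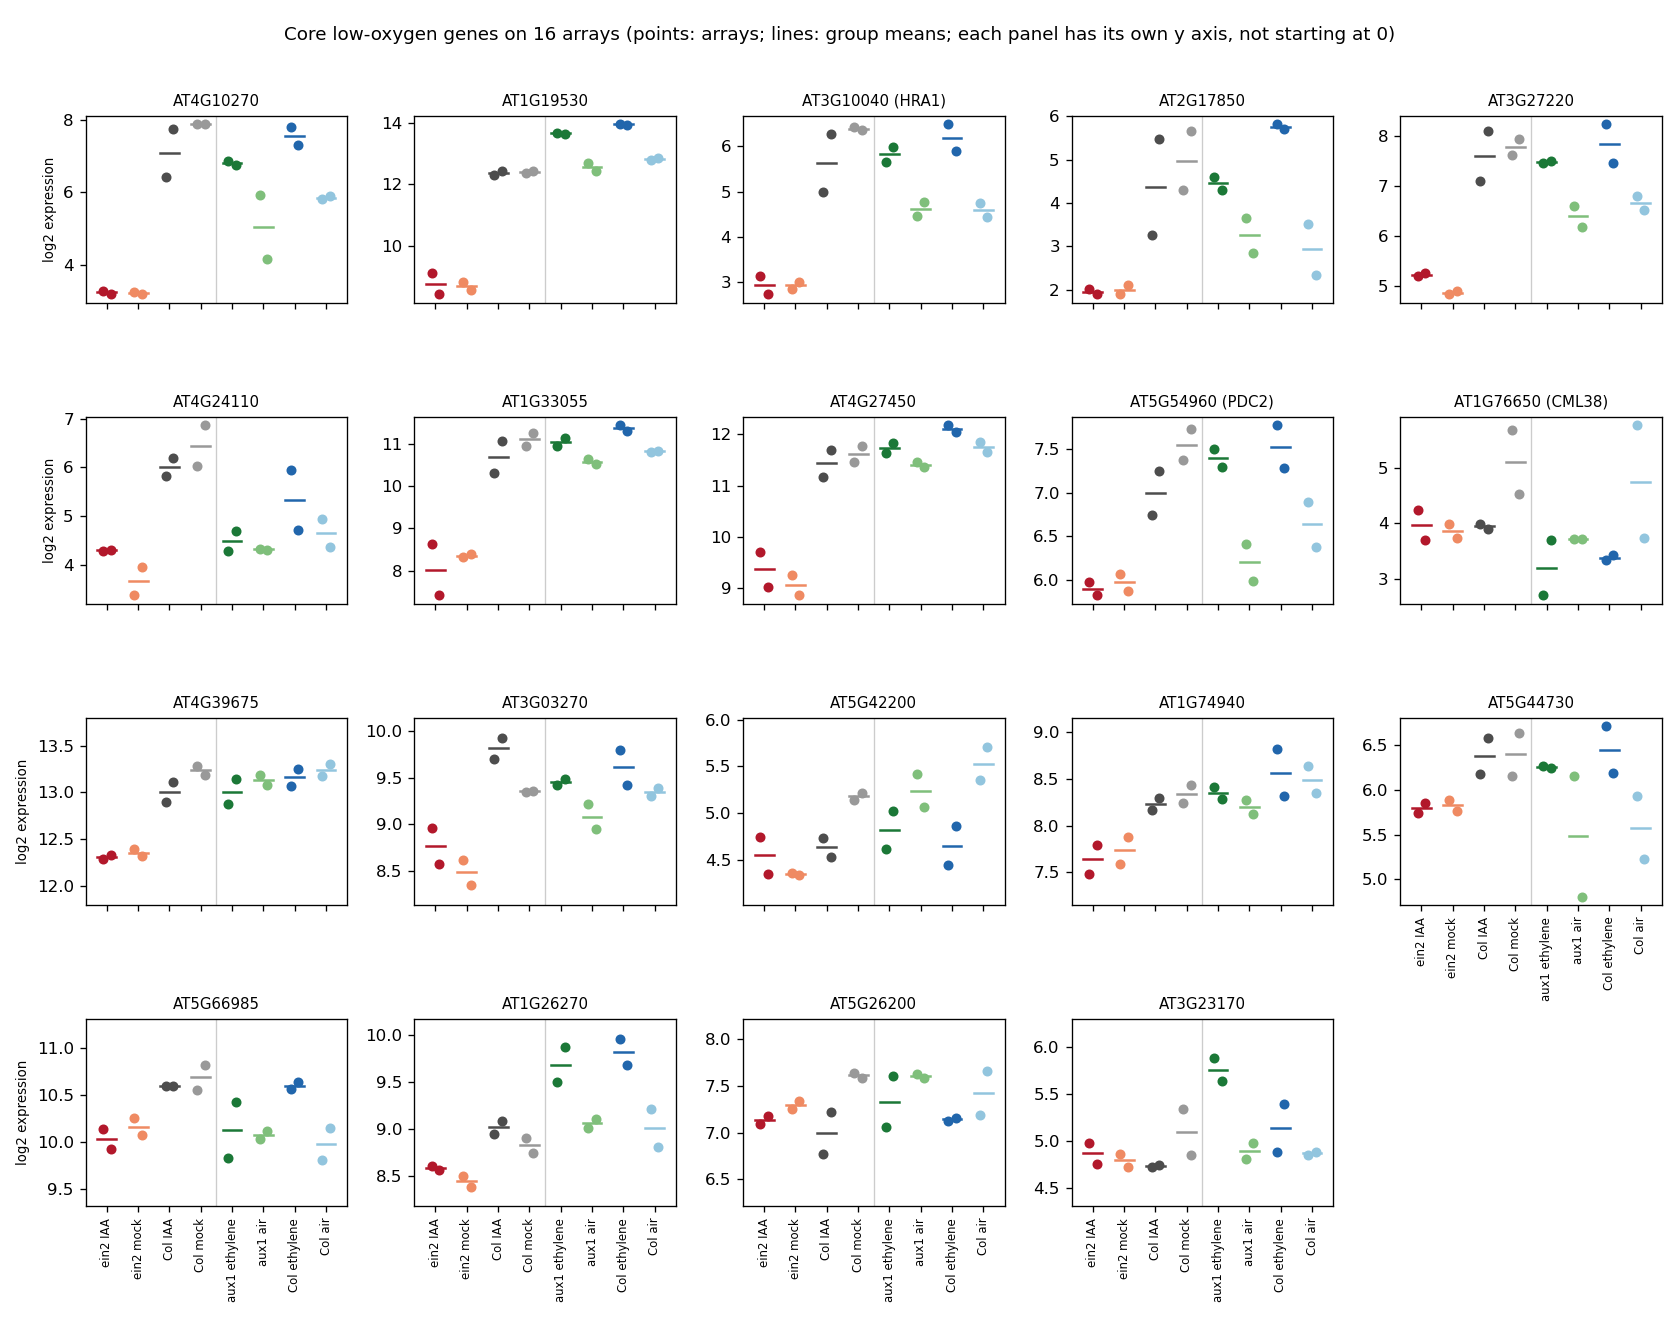
Log2 expression (y axis, its own scale in each panel) of the 19 tested members on each of the 16 arrays, by group (x axis); points are arrays, horizontal lines group means, and the vertical line parts the auxin experiment (left) from the ethylene experiment (right). For AT4G10270 the 4 ein2 arrays sit between 3.19 and 3.30 and the 4 Col arrays of the auxin experiment between 6.41 and 7.87.

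The first comparison, ein2 against Col, asked what the members' levels are in roots that do not pass on the ethylene signal. In mock-treated roots 12 of the 19 members were lower in ein2 and 0 were higher, where 5.77% of all features tested were called lower and 5.42% higher. A feature was called at an adjusted p under 0.05 from limma, which fits 1 mean per group over all arrays and pools the spread. In IAA-treated roots 11 were lower and 0 higher, where 3.20% of all features were called lower and 4.03% higher. The median difference over the 19, ein2 minus Col, was -1.24 on the log2 scale in mock and -1.04 in IAA, against 0.03 and -0.01 over all features tested. Restricted to the 14 members above 4 on every array, 8 were lower in mock and 7 in IAA. The shares called among all features above 4 on every array were not computed, here or for the later counts on these 14. The members were chosen with earlier results of these data known, so the shares over all features are no test of the list. All 11 members called in IAA were among the 12 called in mock, which is 91.7% of those 12. Over all features tested, 343 were called lower in both, 43.1% of those called in mock and 77.6% of those called in IAA.

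HRA1 read 2.86 and 3.01 in mock ein2 roots, against 6.42 and 6.35 in mock Col roots, and 3.14 and 2.74 in IAA-treated ein2 roots, against 4.99 and 6.27 in IAA-treated Col roots. All 4 ein2 arrays lay close to the level of little signal, and none overlapped a Col array. The difference was -3.45 ± 0.34 in mock (SE; 10.9-fold lower in ein2, adjusted p = 5.46e-05) and -2.70 ± 0.34 in IAA (6.48-fold lower, adjusted p = 0.000441). Both calls held under all 25 alternatives.

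PDC2 read 6.07 and 5.87 in mock ein2 roots, against 7.38 and 7.73 in mock Col roots, and 5.97 and 5.82 in IAA-treated ein2 roots, against 6.75 and 7.25 in IAA-treated Col roots. The ein2 arrays were all lower than the Col arrays, and well above the level of little signal. The gene of the fermentative enzyme was 3.00-fold lower in mock (-1.58 ± 0.24, adjusted p = 0.00139) and 2.15-fold lower in IAA (-1.10 ± 0.24, adjusted p = 0.0162). The IAA call ended without Col IAA replicate 2, the array with the higher value (adjusted p = 0.154), and without either ein2 IAA array. The mock call held under all 25 alternatives tried, with an adjusted p of at most 0.0197.

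AT4G10270, of the wound-responsive protein family, had the largest difference of the members. It read 3.24 and 3.19 in mock ein2 roots, against 7.87 and 7.87 in mock Col roots, and 3.30 and 3.19 in IAA-treated ein2 roots, against 6.41 and 7.75 in IAA-treated Col roots. The mutant was 25.2-fold lower in mock (-4.66 ± 0.48, adjusted p = 8.17e-05) and 14.3-fold lower in IAA (-3.84 ± 0.48, adjusted p = 0.000439). Its 4 ein2 values, between 3.19 and 3.30, lay near the level of little signal, and its Col values far above it.

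AT1G19530 stayed well above the level of little signal in every group. It read 8.82 and 8.56 in mock ein2 roots, against 12.37 and 12.42 in mock Col roots, and 9.12 and 8.42 in IAA-treated ein2 roots, against 12.32 and 12.44 in IAA-treated Col roots. No other member had as small an adjusted p: 2.82e-07 in mock (-3.71 ± 0.19, 13.1-fold lower in ein2) and 3.62e-07 in IAA (-3.61 ± 0.19, 12.2-fold lower). The groups did not overlap, and the lowest ein2 value was 8.42.

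AT2G17850, of the rhodanese family, read 1.89 and 2.09 in mock ein2 roots, against 4.29 and 5.65 in mock Col roots, and 2.00 and 1.90 in IAA-treated ein2 roots, against 3.26 and 5.49 in IAA-treated Col roots. All 4 ein2 values were under 2.55, so no fold is given. The log2 difference was -2.98 ± 0.63 in mock (adjusted p = 0.0104) and -2.42 ± 0.63 in IAA (adjusted p = 0.0401). With arrays left out in turn, the mock call ended without Col mock replicate 2 or either ein2 mock array, and the IAA call ended under 11 of 24 alternatives, with adjusted p values of 0.00434 to 0.292. Without Col IAA replicate 2 the IAA difference was -1.31.

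AT3G27220, a kelch repeat protein gene, read 4.84 and 4.91 in mock ein2 roots, against 7.61 and 7.94 in mock Col roots, and 5.20 and 5.27 in IAA-treated ein2 roots, against 7.09 and 8.09 in IAA-treated Col roots. It was 7.45-fold lower in ein2 in mock (-2.90 ± 0.30, adjusted p = 8.88e-05) and 5.11-fold lower in IAA (-2.35 ± 0.30, adjusted p = 0.000548). AT1G33055 read 8.32 and 8.39 in mock ein2 roots, against 10.97 and 11.28 in mock Col roots, and 8.64 and 7.41 in IAA-treated ein2 roots, against 10.31 and 11.09 in IAA-treated Col roots. Its groups did not overlap, and it was lower in ein2 by 6.82-fold in mock (-2.77 ± 0.33, adjusted p = 0.000235) and by 6.37-fold in IAA (-2.67 ± 0.33, adjusted p = 0.000365).

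AT4G27450, which belongs to the aluminium-induced protein family, read 9.27 and 8.86 in mock ein2 roots, against 11.46 and 11.78 in mock Col roots, and 9.70 and 9.04 in IAA-treated ein2 roots, against 11.18 and 11.68 in IAA-treated Col roots. Every ein2 array was lower than every Col array, by 5.88-fold in mock (-2.56 ± 0.23, adjusted p = 2.70e-05) and 4.17-fold in IAA (-2.06 ± 0.23, adjusted p = 0.000188). AT4G24110 read 3.36 and 3.95 in mock ein2 roots, against 6.02 and 6.87 in mock Col roots, and 4.28 and 4.30 in IAA-treated ein2 roots, against 5.82 and 6.19 in IAA-treated Col roots. It was 6.91-fold lower in mock (-2.79 ± 0.38, adjusted p = 0.000715) and 3.29-fold lower in IAA (-1.72 ± 0.38, adjusted p = 0.0186). The IAA call of AT4G24110 ended without any 1 of the 4 IAA arrays and with no filter on low values (adjusted p of up to 0.139 over its alternatives).

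The remaining calls were smaller. AT4G39675 read 12.39 and 12.32 in mock ein2 roots, against 13.29 and 13.19 in mock Col roots. It was lower in ein2 by 1.84-fold in mock (-0.88 ± 0.12, adjusted p = 0.000735) and by 1.62-fold in IAA (-0.70 ± 0.12, adjusted p = 0.00425), and the IAA call ended without Col IAA replicate 2 (adjusted p = 0.0573). AT3G03270, of the universal stress protein family, read 8.62 and 8.35 in mock ein2 roots, against 9.34 and 9.36 in mock Col roots. It was lower in ein2 by 1.82-fold in mock (-0.86 ± 0.17, adjusted p = 0.00642) and by 2.06-fold in IAA (-1.04 ± 0.17, adjusted p = 0.00243), and the mock call ended without ein2 mock replicate 2 (adjusted p = 0.0645). AT5G42200, a RING finger protein gene, was called in mock only: it read 4.37 and 4.34 in ein2, against 5.14 and 5.22 in Col (-0.83 ± 0.20, adjusted p = 0.0217), and its call ended without any 1 of these 4 arrays. In IAA its ein2 arrays, at 4.75 and 4.35, overlapped the Col arrays at 4.73 and 4.54 (-0.09 ± 0.20, adjusted p = 0.889). The interaction for AT5G42200, the IAA effect in ein2 minus that in Col, was 0.75 ± 0.29 with an adjusted p of 1.00 (0.0242 unadjusted).

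Without Col mock replicate 1, the array with the high RCA value, 11 of the 19 members were lower in mock-treated ein2 roots, all except AT5G42200 of the 12, and the median difference was -0.87. Without Col mock replicate 2, the array with the low RCA value, 10 were lower, AT5G42200 and AT2G17850 being the 2 no longer called, and the median was -1.41. In IAA the median difference was -0.86 without Col IAA replicate 2 and -1.16 without Col IAA replicate 1. In the fit without replicate 2, AT2G17850, AT4G24110, AT4G39675 and PDC2 were no longer called.

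**Figure D2:**
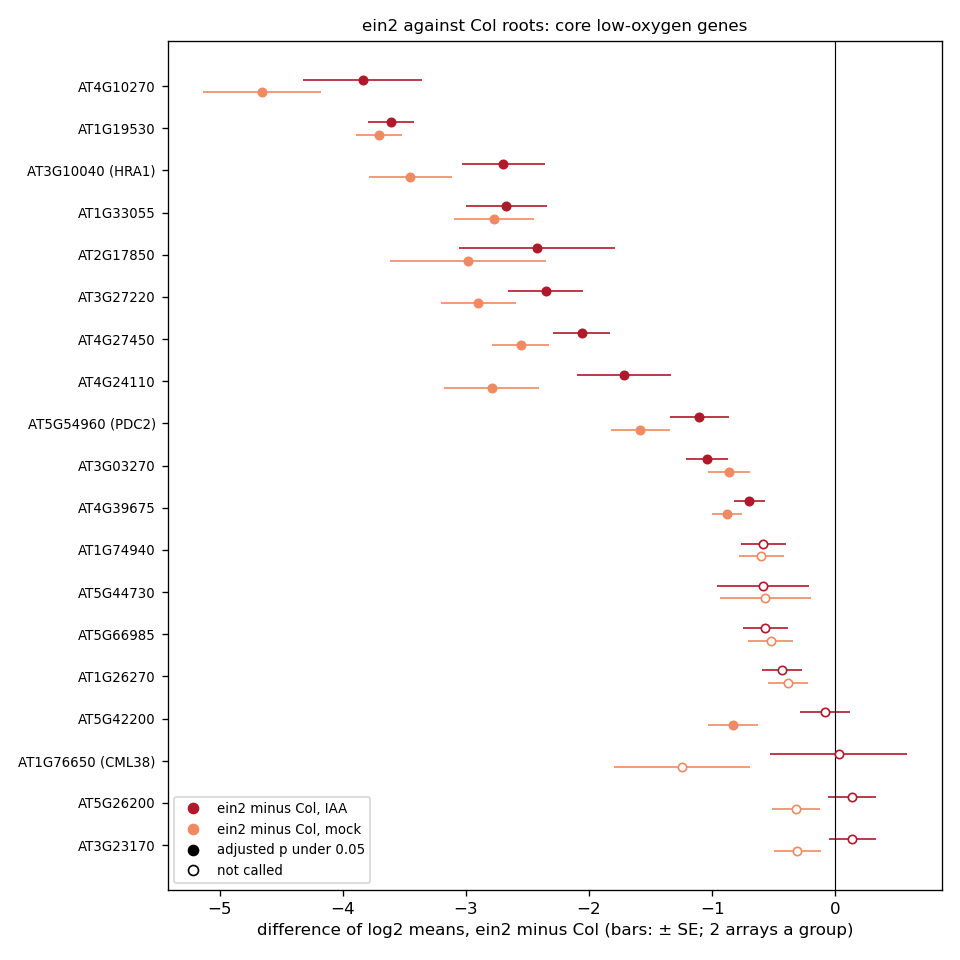
Difference of log2 group means, ein2 minus Col (x axis), for the 19 tested members (y axis), in IAA and in mock; bars are ± 1 SE, filled points have an adjusted p under 0.05, and each group has 2 arrays. The differences in mock run from -4.66 to -0.31, and those in IAA from -3.84 to 0.14.

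Of the members not called in either treatment, AT1G74940, a member of the FLZ zinc finger family, came nearest, with differences of -0.60 ± 0.18 in mock (adjusted p = 0.0563) and -0.59 ± 0.18 in IAA (adjusted p = 0.0840). It was called lower under 8 of 25 alternatives in mock and 3 of 25 in IAA. AT5G66985 differed by -0.53 ± 0.18 in mock and -0.57 ± 0.18 in IAA (adjusted p = 0.0957 and 0.0977), and was called lower under 4 of 25 alternatives in each. AT1G26270, of the phosphatidylinositol kinase family, differed by -0.38 ± 0.16 and -0.44 ± 0.16 (adjusted p = 0.162 and 0.152). For AT5G44730, a gene of the haloacid dehalogenase-like hydrolase family, the values were -0.57 ± 0.37 and -0.59 ± 0.37 (adjusted p = 0.378 and 0.451). For each of these genes both ein2 arrays lay below both Col arrays in each treatment. The share of all features separated in this way was not computed, so the separation adds nothing to the uncalled tests.

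CML38, AT5G26200 (a mitochondrial carrier family gene) and AT3G23170 had differences of opposite sign in the treatments, none of them called. CML38 read 3.98 and 3.74 in mock ein2 roots, against 5.68 and 4.53 in mock Col roots (-1.24 ± 0.55, adjusted p = 0.182), and 4.25 and 3.69 in IAA-treated ein2 roots, against 3.99 and 3.90 in IAA-treated Col roots (0.03 ± 0.55, adjusted p = 0.989). It was above 4 on 4 arrays only, the fewest of the tested members, followed by AT2G17850 on 7. AT5G26200 differed by -0.32 ± 0.20 in mock and 0.14 ± 0.20 in IAA (adjusted p = 0.348 and 0.802). AT3G23170 differed by -0.31 ± 0.19 in mock and 0.14 ± 0.19 in IAA (adjusted p = 0.344 and 0.786).

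The second comparison, ethylene against air, asked whether the members respond when the hormone is supplied. In Col, 7 of the 19 members rose and 1 fell, where 4.07% of all features tested were called higher and 4.81% lower. In aux1, 4 rose and 0 fell, where 3.35% of all features were called higher and 3.79% lower. The median difference over the 19 was 0.63 in Col and 0.47 in aux1, against 0.03 and -0.01 over all features tested. Among the 14 members above 4 on every array, 4 rose and 1 fell in Col, and 4 rose in aux1. Single arrays decided much of these counts: 1 member was called in Col without Col ethylene replicate 1 and 2 without Col air replicate 2, and 1 was called in aux1 without aux1 air replicate 2 and 2 without aux1 ethylene replicate 1. The members that rose in both genotypes were AT1G19530, AT1G26270 and PDC2: 3 of the 7 in Col (42.9%) and 3 of the 4 in aux1 (75%), where 330 features in all rose in both (58.7% and 71.4%).

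HRA1 read 6.49 and 5.90 in ethylene-treated Col roots, against 4.76 and 4.44 in Col roots in air, and 5.66 and 5.98 in ethylene-treated aux1 roots, against 4.46 and 4.76 in aux1 roots in air. Both ethylene groups lay wholly above their air groups. The rise was called in Col (1.60 ± 0.34, 3.02-fold, adjusted p = 0.0116), while the value in aux1 was 1.21 ± 0.34 (2.31-fold, adjusted p = 0.0546). The aux1 rise was called with median centring, quantile normalization, a filter at 6, an intensity trend and within the ethylene experiment alone. The Col call ended without Col ethylene replicate 1 or Col air replicate 2 (adjusted p of up to 0.115 over its alternatives).

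PDC2 read 7.78 and 7.28 in ethylene-treated Col roots, against 6.90 and 6.38 in Col roots in air, and 7.51 and 7.30 in ethylene-treated aux1 roots, against 6.42 and 5.99 in aux1 roots in air. Its rise was 1.86-fold in Col (0.89 ± 0.24, adjusted p = 0.0399) and 2.3-fold in aux1 (1.2 ± 0.24, adjusted p = 0.0103). The Col call of PDC2 ended under 10 of 25 alternatives (adjusted p of 0.00707 to 0.291) and the aux1 call under 3 (0.00172 to 0.0967), among them the fit on the ethylene experiment alone in both cases.

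AT1G19530 read 13.97 and 13.95 in ethylene-treated Col roots, against 12.79 and 12.85 in Col roots in air, and 13.67 and 13.65 in ethylene-treated aux1 roots, against 12.71 and 12.43 in aux1 roots in air. It rose by 1.14 ± 0.19 in Col (2.2-fold, adjusted p = 0.00268) and by 1.09 ± 0.19 in aux1 (2.13-fold, adjusted p = 0.00404). These were the only ethylene calls on members that held under all 25 alternatives, with an adjusted p of at most 0.0223 in Col and 0.0469 in aux1.

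AT2G17850 had the largest ethylene difference of the members on the log2 scale. It read 5.82 and 5.70 in ethylene-treated Col roots, against 3.52 and 2.34 in Col roots in air, and 4.61 and 4.30 in ethylene-treated aux1 roots, against 3.65 and 2.84 in aux1 roots in air. The ethylene arrays lay above the air arrays in both genotypes, with a difference of 2.83 ± 0.63 in Col (adjusted p = 0.0158) and 1.2 ± 0.63 in aux1 (2.3-fold, adjusted p = 0.344). Col air replicate 2 lay under the level of little signal, so no fold is given for Col, and air replicate 2 minus air replicate 1 was -1.18 there. The Col call ended without Col air replicate 2 or either Col ethylene array, and with no filter (adjusted p of up to 0.122).

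AT4G10270 read 7.81 and 7.31 in ethylene-treated Col roots, against 5.81 and 5.90 in Col roots in air, and 6.86 and 6.75 in ethylene-treated aux1 roots, against 5.93 and 4.18 in aux1 roots in air. The differences were alike in size, 1.71 ± 0.48 in Col (3.27-fold, adjusted p = 0.0487) and 1.75 ± 0.48 in aux1 (3.37-fold, adjusted p = 0.0506), and stood on either side of the threshold. The aux1 rise was called with median centring, a filter at 6, an intensity trend and the replicate block. The Col call ended under 16 of 25 alternatives (adjusted p of 0.00821 to 0.262), median centring and quantile normalization among them.

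AT3G27220 read 8.23 and 7.46 in ethylene-treated Col roots, against 6.80 and 6.52 in Col roots in air (1.18 ± 0.30, 2.27-fold, adjusted p = 0.0325), and the difference in aux1 was 1.09 ± 0.30 (adjusted p = 0.0545). For AT3G27220 the aux1 rise was called with median centring, a filter at 6, an intensity trend and the replicate block. Its Col call ended under 5 of 25 alternatives (adjusted p of up to 0.263). AT1G26270 read 9.96 and 9.69 in ethylene-treated Col roots, against 9.21 and 8.80 in Col roots in air, and rose by 0.82 ± 0.16 in Col (1.76-fold, adjusted p = 0.00792) and by 0.63 ± 0.16 in aux1 (1.54-fold, adjusted p = 0.0390). Its Col call ended under 3 of 25 alternatives and its aux1 call under 13 (adjusted p of up to 0.0813 and 0.252). AT3G23170 rose in aux1, with 5.89 and 5.64 in ethylene and 4.81 and 4.98 in air (0.87 ± 0.19, 1.82-fold, adjusted p = 0.0166), while in Col its ethylene arrays at 4.88 and 5.39 overlapped the air arrays at 4.85 and 4.88 (0.27 ± 0.19, adjusted p = 0.493). The aux1 call of AT3G23170 ended under 4 of 24 alternatives (adjusted p of up to 0.108), among them leaving out aux1 ethylene replicate 1 or either aux1 air array.

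AT5G42200 was the member that fell. It read 4.45 and 4.86 in ethylene-treated Col roots, against 5.35 and 5.70 in Col roots in air (-0.87 ± 0.20, 1.83-fold lower, adjusted p = 0.0196), and its difference in aux1 was -0.42 ± 0.20 (adjusted p = 0.296). The call ended without Col ethylene replicate 1 or Col air replicate 2 and within the ethylene experiment alone (adjusted p of up to 0.171). CML38 (AT1G76650) had a larger but uncalled difference, with 3.33 and 3.43 in ethylene-treated Col roots and 5.77 and 3.74 in Col roots in air (-1.37 ± 0.55, adjusted p = 0.176). Air replicate 2 minus air replicate 1 was -2.03 for CML38, and without Col air replicate 2 the difference was -2.39 with an adjusted p of 0.00871, against -0.36 and 0.749 without Col air replicate 1.

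**Figure D3:**
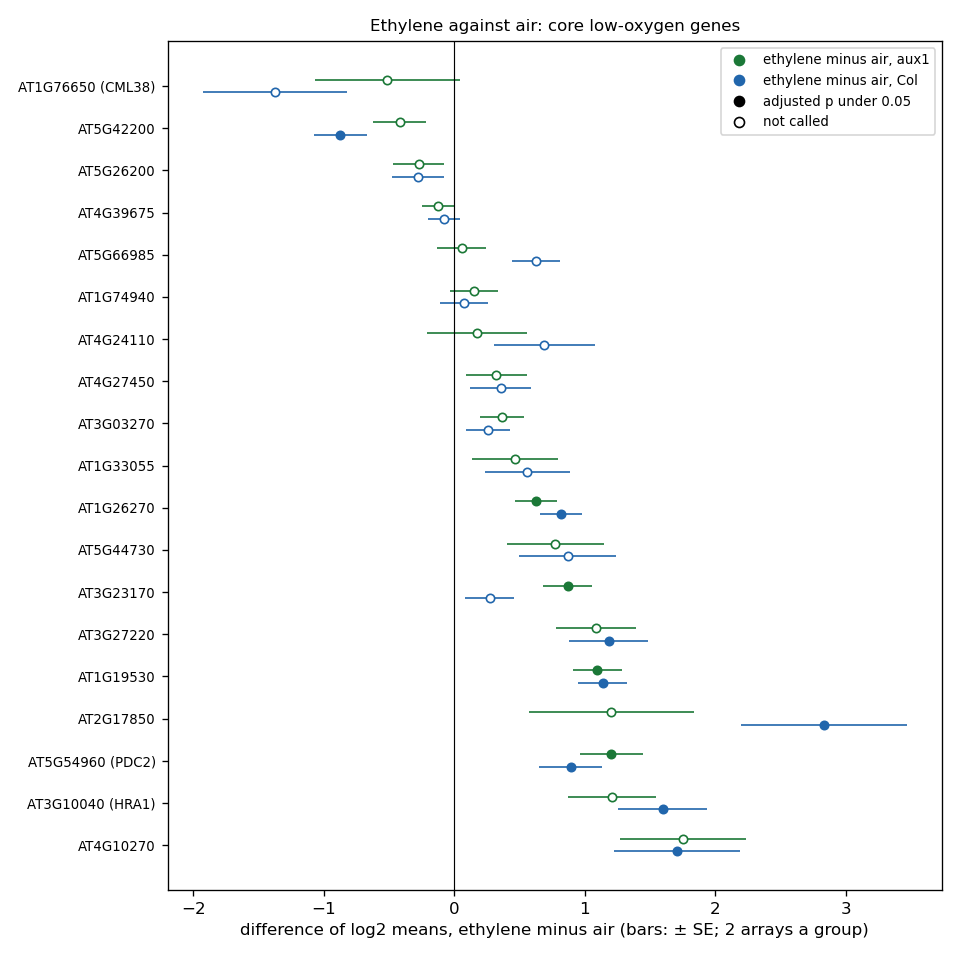
Difference of log2 group means, ethylene minus air (x axis), for the 19 tested members (y axis), in aux1 and in Col; bars are ± 1 SE, filled points have an adjusted p under 0.05, and each group has 2 arrays. The differences run from -0.51 to 1.75 in aux1 and from -1.37 to 2.83 in Col.

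The members not yet described had ethylene differences of -0.28 to 0.87 in Col, none of them called. AT5G44730 had 0.87 ± 0.37 in Col and 0.77 ± 0.37 in aux1 (adjusted p = 0.204 and 0.289). AT4G24110 had 0.69 ± 0.38 in Col and 0.17 ± 0.38 in aux1 (adjusted p = 0.358 and 0.886). AT5G66985 had 0.63 ± 0.18 in Col and 0.06 ± 0.18 in aux1 (adjusted p = 0.0599 and 0.934). AT1G33055, AT4G27450 and AT3G03270, all lower in ein2, had Col values of 0.56 ± 0.33, 0.35 ± 0.23 and 0.26 ± 0.17. AT4G39675, also lower in ein2, had -0.08 ± 0.12 in Col and -0.13 ± 0.12 in aux1.

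The aux1 comparisons asked whether the response to ethylene differs in a mutant of the auxin influx carrier AUX1. The ethylene effect in aux1 minus that in Col was called for 0 of the 19 members, where 0.145% of all features tested were called, and 1 member had an unadjusted p under 0.05 (AT3G23170, 0.60 ± 0.27, adjusted p = 0.852). For AT2G17850, whose effects differed most in size, the interaction was -1.63 ± 0.90, with a 95% interval of -3.59 to 0.33. For HRA1 it was -0.39 ± 0.48 (95% interval -1.44 to 0.66) and for PDC2 0.31 ± 0.34 (-0.43 to 1.06), so effects that differ by 1 log2 unit lie within the interval for both. In air, aux1 against Col was called for 0 members, where 0.703% of all features were called, and 0 members had an unadjusted p under 0.05. Of the 19 differences, aux1 minus Col, 13 were below 0, with a median of -0.25, against 0.01 over all features. In ethylene it was called for 0 members, where 1.93% of all features were called, with 16 of the 19 differences below 0 and a median of -0.21, against -0.01 over all features. In ethylene 3 members had an unadjusted p under 0.05: AT3G23170 (0.63 ± 0.19, adjusted p = 0.158), AT5G66985 (-0.47 ± 0.18, adjusted p = 0.330) and AT4G24110 (-0.85 ± 0.38, adjusted p = 0.445).

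IAA itself moved no member past the threshold. In Col, IAA against mock was called for 0 of the 19, where 7.00% of all features tested were called in either direction, and 5 members had an unadjusted p under 0.05. These were AT3G03270 at 0.46 ± 0.17, and AT5G26200 at -0.61 ± 0.20, AT5G42200 at -0.55 ± 0.20, PDC2 at -0.56 ± 0.24 and HRA1 at -0.75 ± 0.34 (lowest adjusted p = 0.0924, for AT5G26200). The median over the 19 was -0.37 in Col, against 0.00 over all features, and 17 of the 19 differences were below 0. Without Col mock replicate 1 the count of calls was 0, the median -0.35, and 17 were below 0. In ein2, IAA was called for 0 members, where 3.30% of all features were called, and 0 had an unadjusted p under 0.05; the members' median was 0.02. The IAA effect in ein2 minus that in Col was called for 0 members, where 0% of all features were called, and AT5G42200 was the 1 member with an unadjusted p under 0.05. With Col IAA replicate 2 left out, the HRA1 difference after IAA in Col was -1.39. HRA1 read 4.99 and 6.27 in IAA-treated Col roots, against 6.42 and 6.35 in mock. Only IAA replicate 1 thus lay far below the mock arrays. The median and the count below 0 are not given without Col IAA replicate 1. The share of all features with a difference below 0 is not given either, so the 17 of 19 has no share beside it.

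The 2 Col IAA arrays differed in the same direction over most members. Replicate 2 lay above replicate 1 for 17 of the 19, with a median difference of 0.37, while over all features it lay above for 52.0%, with a median of 0.01. The gap was 2.23 for AT2G17850, 1.34 for AT4G10270, 1.28 for HRA1 and 1.00 for AT3G27220, and replicate 1 was the lower array in each. In the other groups the median of replicate 2 minus replicate 1 over the members lay between -0.21 and 0.18. The size of the gap was not particular to Col IAA: its median over the members, sign aside, was 0.37 in Col IAA, 0.37 in ethylene-treated Col and 0.32 in Col in air, against 0.12, 0.17 and 0.17 over all features.

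**Figure D4:**
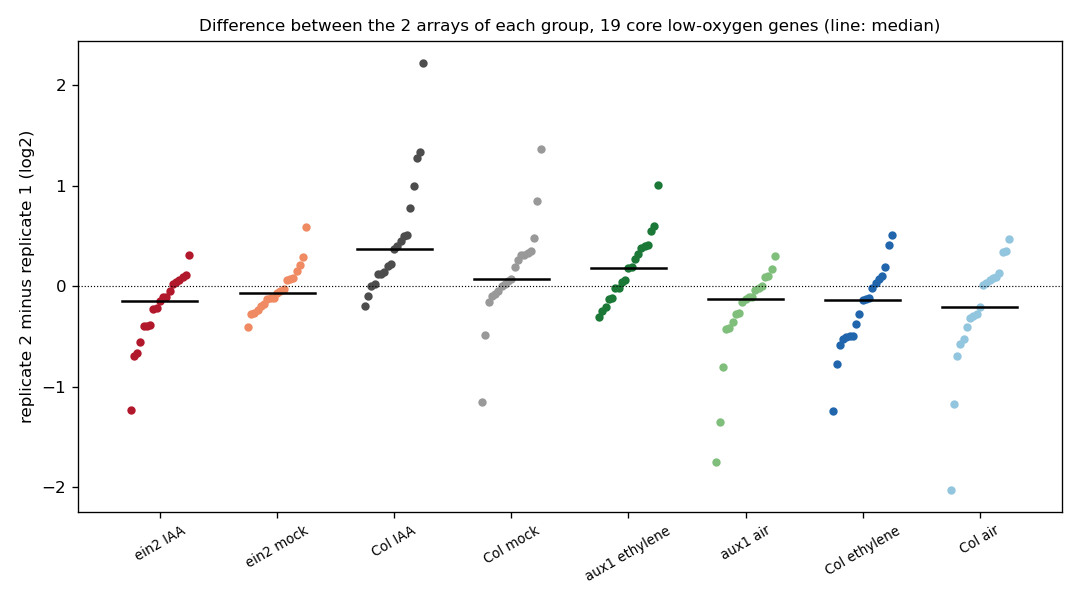
Replicate 2 minus replicate 1 in log2 units (y axis) for the 19 tested members, in each of the 8 groups (x axis); points are members in order of value, and lines are medians. The Col IAA median is 0.37, and its highest point, AT2G17850, is at 2.23.

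The genotype and the hormone comparisons use separate arrays, so they can be set side by side. Of the 7 members that rose with ethylene in Col, 6 were among the 12 lower in mock-treated ein2 roots: AT1G19530, AT2G17850, HRA1, AT3G27220, AT4G10270 and PDC2. That is 85.7% of the 7 and 50% of the 12. Over all features tested 153 were in both sets, 27.2% of those higher with ethylene and 19.2% of those lower in ein2. These shares have unlike bases, as 12 of the 19 members were lower in ein2, against 5.77% of all features. Many of any 7 members would be shared, so the gap between the shares does not by itself link the comparisons. HRA1, AT2G17850 and AT4G10270 passed the filter through groups other than ein2. Among the 14 members above 4 on all arrays, 3 of the 4 that rose with ethylene were among the 8 lower in ein2. AT1G26270 was the member that rose with ethylene without a call in ein2, and AT5G42200 was lower both with ethylene and in mock-treated ein2 roots. Over the 19 members Pearson's r between the difference ein2 minus Col in mock and the difference ethylene minus air in Col was -0.61, and Spearman's rho was -0.63, against r = -0.27 over all features. Over those 14 members r was -0.50 and rho -0.43. Without Col mock replicate 1 in the ein2 comparison the same 6 members were in both sets, and r was -0.69 over the 19. The correlation is across genes measured on the same arrays, and genes are not independent replicates.

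The sizes did not match gene by gene. AT1G33055 and AT4G27450 had differences of -2.77 and -2.56 in mock-treated ein2 roots against Col, while ethylene gave 0.56 and 0.35 in Col without a call. Across treatments the ein2 differences in mock and in IAA had r = 0.96 over the 19 (rho = 0.92), against 0.86 over all features. The ethylene effects in Col and in aux1 had r = 0.85 (rho = 0.90), against 0.75 over all features.

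**Figure D5:**
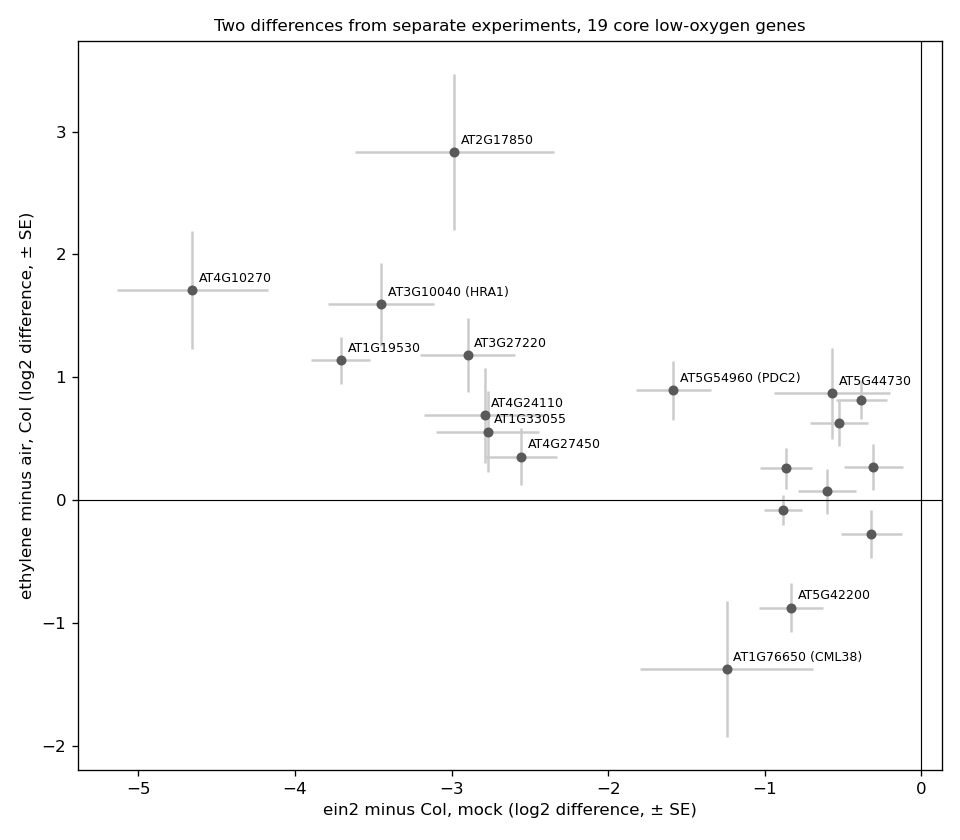
The difference ethylene minus air in Col (y axis) against the difference ein2 minus Col in mock (x axis), both in log2 units, for the 19 tested members; bars are ± 1 SE and the comparisons share no arrays. AT4G10270 lies at -4.66 and 1.71, and AT4G27450 at -2.56 and 0.35.

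Over all 8 groups, the 2 ein2 groups had the lowest means for 14 of the 19 members. Among these are AT2G17850, HRA1 and AT4G10270, which passed the filter through groups other than ein2. The order of the groups mixes the experiments and was not counted over all features, so no share stands beside these counts. The highest mean was in ethylene-treated Col for 8 members, in mock Col for 7, in Col in air for 2, in ethylene-treated aux1 for AT3G23170 and in IAA-treated Col for AT3G03270. The control groups of the experiments, mock Col and Col in air, did not have the same levels. AT2G17850 averaged 4.97 ± 0.96 in mock Col and 2.93 ± 0.83 in Col in air (SD, n = 2 each). AT4G10270 averaged 7.87 and 5.85, AT4G24110 6.45 and 4.64, and HRA1 6.39 and 4.60 in mock Col and in Col in air. AT1G19530 differed in the opposite direction, with 12.40 in mock Col and 12.82 in Col in air, as did AT5G42200, with 5.18 and 5.53. AT1G26270, AT1G74940, AT4G27450 and AT4G39675 were also lower in mock Col, by 0.18 or less. The median over the 19, mock Col minus Col in air, was 0.29, against -0.01 over all features. With Col mock replicate 2 alone it was 0.17, against 0.01. Treatment, handling and experiment cannot be told apart here.

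Few other genes of the pathway could be followed. None of the 4 listed group VII ethylene response factors outside the members, of the 11 genes of oxygen sensing and cysteine-dependent protein turnover, of the 2 other haemoglobins or of the 5 alternative oxidases had a single-gene probe set, and they were not analysed here. Of 25 listed genes of sugar use and fermentation, 3 were tested, namely LDH1 (lactate dehydrogenase), GAPC2 (a cytosolic glyceraldehyde-3-phosphate dehydrogenase) and PPDK (pyruvate orthophosphate dikinase), and 0 of their 30 comparisons were called (lowest adjusted p = 0.0592). PPDK had the largest value, 1.51 ± 0.48 for ethylene in Col (adjusted p = 0.0842), with 7.57 and 7.21 in ethylene and 6.60 and 5.17 in air. Of 13 listed genes of ethylene feedback, RTE1, a regulator of the ETR1 receptor, and EIN3 were tested. RTE1 was lower in ein2 in mock and in IAA (-1.19 ± 0.18 each, adjusted p = 0.00120 and 0.00146), and its ethylene difference in Col was 2.92 ± 0.18, against 1.60 ± 0.34 for HRA1 and 0.89 ± 0.24 for PDC2. EIN3 was not called in any of the 10 comparisons.

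The 4 other members with a single-gene probe set did not pass the filter. AT4G33560, of the wound-responsive protein family, was above 4 on 1 array, Col mock replicate 2, at 4.24, and its other values lay between 2.55 and 3.56. It read 3.56 and 3.5 in ethylene-treated Col roots, against 2.64 and 2.72 in Col roots in air. AT5G10040 ranged from 2.67 to 3.67, AT4G17670 from 2.11 to 2.70 and AT5G45960 from 1.89 to 1.96. In a fit without the filter none of the 4 was called in any comparison.

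The other 22 members had no single-gene probe set in the annotation used and were not analysed here. Among them are the fermentation genes ADH1 (AT1G77120) and PDC1 (AT4G33070), the sucrose synthase genes SUS1 (AT5G20830) and SUS4 (AT3G43190), the phosphofructokinase gene PFK6 (AT4G32840) and the haemoglobin gene HB1 (AT2G16060). The group VII factor gene ERF71 (AT2G47520), the cysteine oxidase genes PCO1 (AT5G15120) and PCO2 (AT5G39890) and the LOB domain gene LBD41 (AT3G02550) belong there too. So do the ethylene receptor gene ETR2 (AT3G23150), the ethylene-forming oxidase gene ACO1 (AT2G19590) and the NADPH oxidase gene RBOHD (AT5G47910). The rest are ARD3 (AT2G26400), NIP2;1 (AT2G34390), PHI-1 (AT1G35140), FTM1 (AT1G43800), UKL3 (AT1G55810), PP2-A11 (AT1G63090), PP2-A13 (AT3G61060), ACR7 (AT4G22780) and SRO5 (AT5G62520).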

How the data were processed

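Total RNA of roots was hybridised to 16 one-colour arrays of 22810 probe sets. The authors deposited log2 expression values per probe set; per the submitters' processing notes they come from GCRMA, whose version, settings and array set are not given in the sources used here. That the scale is log2 follows from the range of the values, which entered the tests as deposited. A platform table paired 13421 probe sets with 1 gene, and the 8730 it did not list were kept as features of their own. Left out were 503 probe sets with several genes, 92 without a locus code and 64 controls. A locus with several probe sets was represented by the one with the highest mean. Features above 4 on at least 2 arrays were kept: 13805, of which 7611 have a locus code and 6194 are unlisted probe sets of unknown gene. Shares over all features include both kinds. Differences were tested two-sided with limma 3.58.1 (R 4.3.3; lmFit, eBayes, 1 mean per group over 16 arrays, 8 residual and 3.43 prior degrees of freedom) and adjusted by Benjamini-Hochberg over all features in each of 10 comparisons. A call means an adjusted p under 0.05. Every tested member is named, by rule. The script was tested on simulated data. The members and the gene lists were chosen with earlier results of these data known. A planned search for promoter motifs was not run, and no sequences are printed. For arrays, their number limits the precision.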

Additional observations from a re-analysis of the deposited data

How the results depend on the processing

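Each call was recomputed under 25 alternatives: a fit within 1 experiment, a replicate block, median centring, quantile normalization, an eBayes intensity trend, probe sets averaged by locus, only features with a locus code, a filter at 6 or none, and each of the 16 arrays left out. A group left with 1 array is then assumed to vary like the others. Of 35 calls on members, 18 held under every alternative, 17 were lost under at least one, and 0 reversed: 9 of 12 held for ein2 in mock, 7 of 11 for ein2 in IAA, 1 of 8 for ethylene in Col and 1 of 4 for ethylene in aux1. Leaving out arrays gave 9 to 13 calls for ein2 in mock, 7 to 11 for ein2 in IAA, 1 to 8 for ethylene in Col, 1 to 6 for ethylene in aux1, and 0 to 1 for IAA in Col. For ethylene in Col the count was 4 with no filter and 3 within 1 experiment. For ethylene in aux1 it was 7 with median centring, 7 with an intensity trend and 2 within 1 experiment. For IAA in Col it was 1 within 1 experiment (AT5G26200). The other 5 comparisons had 0 calls under all alternatives. The causes were not tested, beyond fewer arrays in the fits that leave some out. With the replicate block, 14 members were called for ein2 in mock, 13 for ein2 in IAA, 9 for ethylene in Col, 6 for ethylene in aux1 and 1 for IAA in Col (AT5G26200). The block added AT1G74940 (adjusted p = 0.00506 in mock, 0.00738 in IAA) and AT5G66985 (0.0417 and 0.0419) for ein2. Deviations of same-numbered arrays correlated at 0.31 to 0.42 between groups of the ethylene experiment. Between groups of the auxin experiment they correlated at 0.08 to 0.39. The sample titles do not say what same-numbered arrays share. The main fit has no term for the replicate number, so any such shared deviation stays in its spread. The restriction to the 14 members above 4 on all arrays was added after seeing the data.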

Other observations

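In the fit without the low-value filter AT4G33560 had an ethylene difference of 0.84 ± 0.44 in Col (adjusted p = 0.454). On Col mock replicate 1, where the shoot marker RCA read 7.82, AT4G10270 read 7.87, the same as on Col mock replicate 2, where RCA read 2.70. AT1G19530 read 12.37 and 12.42 on these 2 arrays. Other members differed more between them. Replicate 2 minus replicate 1 was 1.36 for AT2G17850, -1.15 for CML38 and 0.85 for AT4G24110. Over the 19 members it was above 0 for 13 and below 0 for 6. Its median, sign aside, was 0.26, against 0.12 over all features. Whether the high RCA value bears on the members was not tested.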
